A study of Homo sapiens with 6 samples.

Results

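This report describes 10 human genes of the AP-1, MYC and immediate-early class (FOS, FOSL1, FOSL2, JUN, JUNB, JUND, EGR1, NR4A1, MYC and IER3) in irradiated and unirradiated HMC3 cells. They were taken by gene name from the table of transcript counts, where they are 10 of 31768 genes and hold 42 of 153848 transcript rows. HMC3 is an immortalized human line of microglial origin, and each library came from a separate culture of this line. The 3 control cultures received 0 Gy and the 3 irradiated cultures received 15 Gy of X-rays from a linear accelerator, and all were collected after 24 h. Polyadenylated RNA was read as PCR-amplified, full-length cDNA on Oxford Nanopore flow cells. The single comparison of the design is irradiated over control, and it asks how these genes and their isoforms stood a day after the dose. No earlier time was sequenced.

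AP-1 is a family of dimers made of a FOS protein and a JUN protein, or of JUN proteins alone, joined by leucine zippers and bound to DNA through a basic region. Growth factor and stress signals switch on many of these genes within minutes through kinases of the ERK, JNK and p38 cascades, which act on SRF, ELK and CREB at their promoters, and most of these transcripts decay quickly. FOSL1 and FOSL2 appear later and last longer than FOS. EGR1 and NR4A1 are early-induced DNA-binding factors of the zinc finger and nuclear receptor families, IER3 is a small stress-induced protein that acts on survival signals, and MYC pairs with MAX at E-boxes to drive growth and ribosome production.

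The exon that encodes most of the DNA-binding basic region of the FOS family is shown here because isoforms that lack it are among those measured below. It is exon 3 of 4 in the main transcripts of FOS, FOSL1 and FOSL2, is wholly coding, and has 108 bases (36 codons) in each gene. In GRCh38 with GENCODE release 29 it lies at chr14:75280560-75280667 on the plus strand in FOS, chr11:65894014-65894121 on the minus strand in FOSL1 and chr2:28408759-28408866 on the plus strand in FOSL2. Capitals mark the 65 bases (60.2%) that all 3 genes share.
FOS: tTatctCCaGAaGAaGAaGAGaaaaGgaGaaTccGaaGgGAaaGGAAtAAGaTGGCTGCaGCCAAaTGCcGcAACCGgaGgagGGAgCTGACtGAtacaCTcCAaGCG
FOSL1: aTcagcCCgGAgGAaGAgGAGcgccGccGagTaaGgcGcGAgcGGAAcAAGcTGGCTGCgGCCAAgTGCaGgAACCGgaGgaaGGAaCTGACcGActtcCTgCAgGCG
FOSL2: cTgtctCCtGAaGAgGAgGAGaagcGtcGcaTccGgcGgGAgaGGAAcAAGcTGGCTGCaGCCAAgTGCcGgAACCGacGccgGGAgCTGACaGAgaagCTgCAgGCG
FOS and FOSL2 share 81 of the 108 bases (75.0%), FOSL1 and FOSL2 share 77 (71.3%), and FOS and FOSL1 share 71 (65.7%).

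The RefSeq promoter table of GRCh38.p14, which holds 300 bases around each start, had windows for 7 of the 10 genes. Both strands were searched for the AP-1 element TGANTCA, the cyclic AMP element TGACGTCA and its part TGACG, the CArG box bound by SRF, the E-box CACGTG, the EGR site GCGTGGGCG and TATAAA. The stretches with an AP-1 element, a full cyclic AMP element or CArG boxes are shown, with the matched bases in capitals, since these are known elements of early-gene control. The FOSL2 stretch holds an AP-1 element that begins 5 bases into the transcript (chr2:28392851-28392880, plus strand). The JUND stretch holds a cyclic AMP element 200 bases before the start (chr19:18281713-18281832, minus strand). The EGR1 stretch holds CArG boxes that begin 105 and 83 bases before the start (chr5:138465359-138465478, plus strand).
FOSL2: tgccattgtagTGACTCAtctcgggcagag
JUND: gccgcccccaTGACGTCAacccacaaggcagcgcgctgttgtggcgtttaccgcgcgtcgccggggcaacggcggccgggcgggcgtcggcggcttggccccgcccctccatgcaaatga
EGR1: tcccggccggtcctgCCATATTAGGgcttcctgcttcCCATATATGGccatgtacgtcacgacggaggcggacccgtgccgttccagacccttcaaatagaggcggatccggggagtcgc
Of 35116 promoter windows of this length, 7.71% held TGANTCA, 1.85% held TGACGTCA, 1.29% held a CArG box and 24.6% held TGACG, which overlaps every TGACGTCA. TGACG occurred in the windows of FOS, FOSL2, JUN, JUNB, JUND and EGR1, and TATAAA, present in 11.5% of all windows, in those of FOS and JUNB. These matches describe letters in a window and no binding was measured.

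The libraries held between 4870897 and 9082409 counts. Expression is given as CPM, the count scaled to a common library size with TMM (trimmed mean of M values) factors, with means ± SD over 3 cultures. Differences are log2FC, the log2 of irradiated over control, with their standard error (SE). A gene is said to have risen or fallen where the quasi-likelihood test of edgeR gave a p, adjusted by Benjamini and Hochberg's method, under 0.05. TMM factors were 0.788 to 0.931 in controls and 1.10 to 1.24 in irradiated libraries, so scaling by library totals alone lifts the median log2FC over all genes, 0.08 with TMM, to 0.53. Changes below are relative to the TMM scale. As a check of the treatment, 11 of 15 p53 target genes rose and 0 fell, with CDKN1A, which encodes the cell cycle inhibitor p21, going from 177.6 ± 14.8 to 600.2 ± 9.88 CPM (SD, n = 3). Of 13 microglial markers, ITGAM, CX3CR1, P2RY12, TMEM119 and TYROBP had no counts in the table used here and 2 had enough for a test, with a summed level of all 13 of 82.6 to 103.6 CPM in controls and 109.8 to 126.6 CPM in irradiated cells. The 10 fibroblast and pericyte markers summed to 2159 to 2646 CPM in controls and 2648 to 2959 CPM in irradiated cells, 4 of them rose and 2 fell, and COL3A1 was at 0. The part of these markers in the results on the 10 genes was not tested.

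At this time NR4A1 and FOSL2 were the genes of the class that rose. NR4A1 stood 2.76-fold higher in irradiated cells and FOSL2 1.59-fold higher, while the remaining 7 tested genes lay between −0.31 (MYC) and 0.54 (EGR1) on the log2 scale and did not pass the test. Of the 10 genes, 9 reached 10 counts in at least 3 libraries and were tested, all but JUNB. The 2 that rose compare with 10.5% of all 12865 genes tested that rose, and the 0 that fell with 13.6% of all genes that fell. No member was lower at an unadjusted p under 0.05 with edgeR and 3 were higher (NR4A1, FOSL2 and JUN). JUN ranked 3984 by this p among the 12865 genes tested, so at least that many genes, in either direction, passed the same limit. The share of all genes that were higher at this limit is not given, so the count of 3 is not read as a feature of the class. DESeq2 called 2 members higher and 0 lower, where it called 9.3% of 12116 genes higher and 15.5% lower. With the study's further limit of a log2FC over 1, 1 gene (NR4A1) remained above it, where 4.05% of all genes did, and 0 lay below −1, where 1.97% of all genes did. The control and irradiated values did not overlap in 2 of the 9 genes and in 42.9% of all genes. The median log2FC was 0.48 over the 9 genes and 0.08 over all genes tested.

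**Figure D1:**
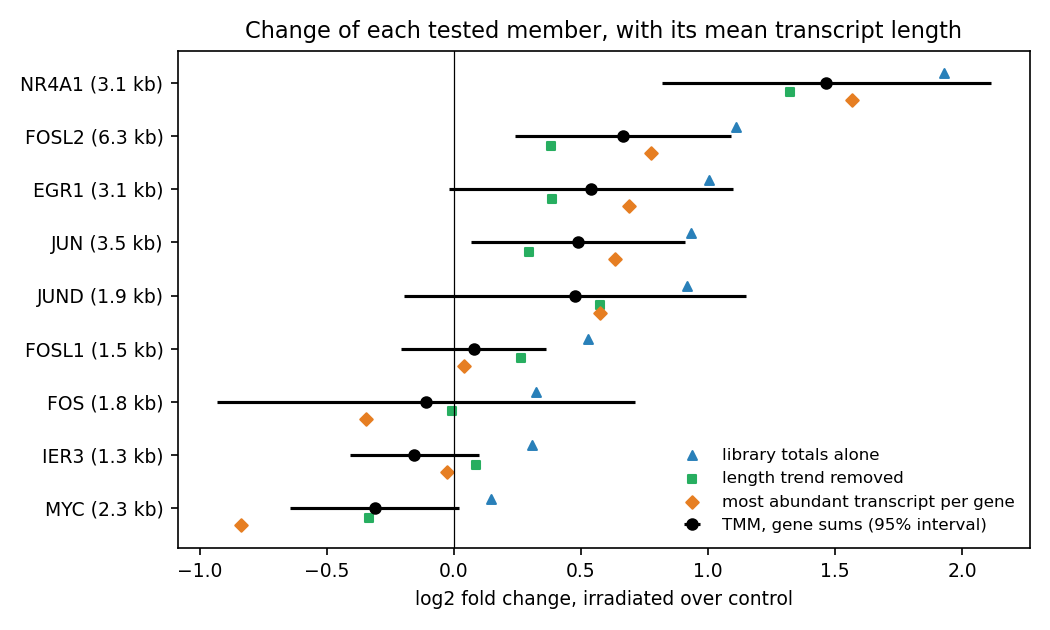
Log2 fold change (irradiated over control) of the 9 tested genes with the mean length of their transcripts in kb. Black points and bars are the fit to summed counts with its 95% interval, blue triangles use library totals, green squares remove each library's trend on transcript length, and orange diamonds use the most abundant transcript of each gene. NR4A1 lies to the right of 1 in all 4 fits, whereas MYC lies at 0.15 with library totals and at −0.84 with the most abundant transcript.

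In the FOS family, FOSL1 was by far the most abundant. FOSL1 (chromosome 11, 65892049 to 65900573, minus strand) measured 160.03, 127.9 and 173.3 CPM in controls 1, 2 and 3 and 167.9, 150.4 and 168.5 CPM in irradiated cultures 1, 2 and 3. The groups overlapped, and the log2FC of 0.08 had an SE of 0.133 and a 95% interval of −0.21 to 0.36 (adjusted p = 0.706, edgeR quasi-likelihood, Benjamini-Hochberg adjusted). FOSL2 (chromosome 2, 28392448 to 28417312, plus strand), which encodes the late-lasting FRA-2, measured 17.3, 14.1 and 21.6 CPM in controls and 25.4, 28.4 and 30.8 CPM in irradiated cultures. Every irradiated value lay above every control value, and FOSL2 rose by 0.67 on the log2 scale with an SE of 0.198 (adjusted p = 0.0265, edgeR). Its adjusted p was 0.0610 without control 1, 0.101 without control 2, 0.0573 without irradiated culture 2 and 0.104 without irradiated culture 3. Its transcripts average 6264 bases, the longest of the class where release 29 gives a length, and after removal of the length trend within each library its log2FC was 0.38 (adjusted p = 0.151, edgeR).

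FOS itself (chromosome 14, 75278774 to 75282230, plus strand), the founding immediate-early gene, was close to the lower limit of measurement with 13 to 35 counts a library. It measured 3.17, 2.08 and 4.15 CPM in controls and 2.44, 3.15 and 3.19 CPM in irradiated cultures, all irradiated values falling within the range of the controls. The 95% interval of its log2FC ran from −0.93 to 0.71, so the data leave room for a fall or a rise within these limits (adjusted p = 0.859, edgeR). Per kb of transcript, FOSL1 made up 95.7% ± 0.473 of the summed level of FOS, FOSL1 and FOSL2 in controls and 94.5% ± 0.691 in irradiated cells. The share of FOSL2 was 2.71% ± 0.197 in controls and 4.07% ± 0.442 in irradiated cells, without overlap between the groups, and that of FOS was 1.61% ± 0.301 and 1.44% ± 0.252 (SD, n = 3 each). Division by length lowers the long FOSL2 most, although a long read can cover a whole transcript. Undivided, mean CPM in controls was 153.7 for FOSL1, 17.7 for FOSL2 and 3.14 for FOS. In irradiated cells it was 162.2, 28.2 and 2.93 in the same order. FOSL2 thus holds a larger share of the family by CPM.

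**Figure D2:**
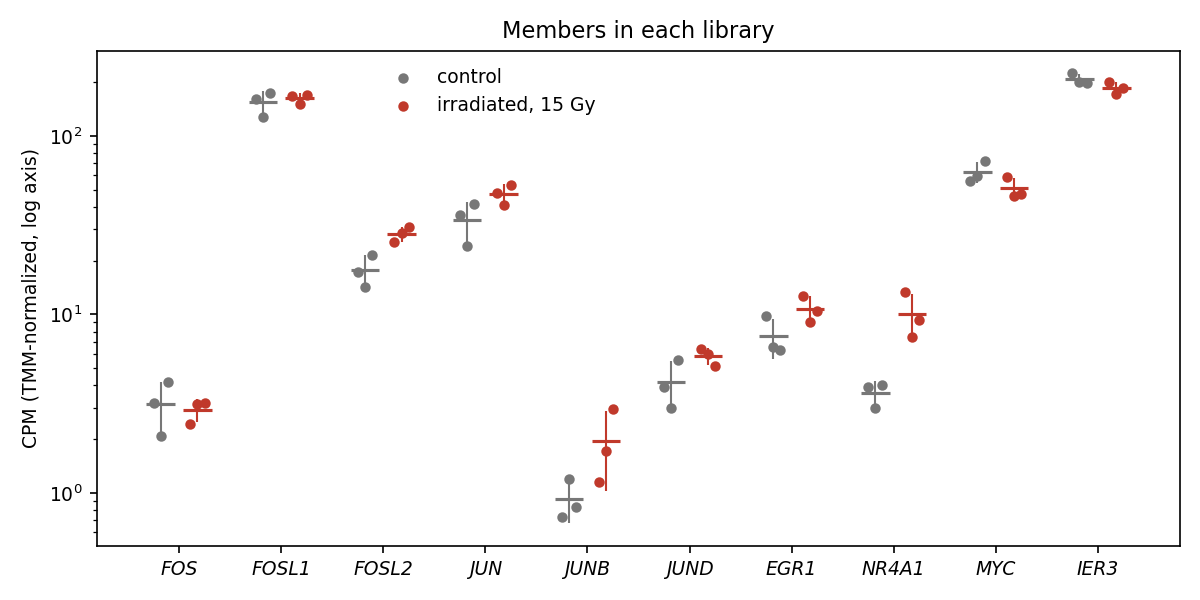
Level of each of the 10 genes in every library, as TMM-normalized CPM on a log axis and not divided by length. Points are the 3 control (gray) and 3 irradiated (red) cultures, horizontal marks are means and vertical bars SDs. NR4A1 goes from 2.98 to 4.03 CPM in controls to 7.45 to 13.3 CPM in irradiated cells, and FOSL2 is the other tested gene whose groups do not overlap.

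Among the JUN genes, which encode the obligate partners of the FOS proteins, JUN led. JUN (chromosome 1, 58780788 to 58784327, minus strand) measured 35.9, 24.0 and 41.5 CPM in controls and 48.0, 41.1 and 53.1 CPM in irradiated cultures, the lowest irradiated value lying just under the highest control. Its log2FC was 0.49 with an SE of 0.196, which did not pass (adjusted p = 0.0851, edgeR) although the unadjusted p was 0.0264. Without control 3 its adjusted p was 0.0244 at a log2FC of 0.66 (edgeR). JUND (chromosome 19, 18279760 to 18281622, minus strand), the JUN gene usually held steady in resting cells, measured 3.90, 2.98 and 5.58 CPM in controls and 6.42, 6.02 and 5.16 CPM in irradiated cultures (log2FC 0.48, 95% interval −0.20 to 1.15, adjusted p = 0.282, edgeR). JUNB (chromosome 19, 12791496 to 12793315, plus strand) had 3, 8 and 7 counts in controls and 9, 12 and 24 in irradiated cultures. It was too sparse for the main test, and with no filter on low counts its log2FC was 1.08 (adjusted p = 0.369, edgeR). Per kb, JUN held 77.5% ± 2.60 of the summed JUN, JUNB and JUND level in controls and 75.9% ± 2.06 in irradiated cells, JUND 18.01% ± 1.58 and 18.1% ± 3.32, and JUNB 4.48% ± 2.40 and 5.98% ± 2.38 (SD, n = 3). Undivided by length, mean CPM in controls was 33.8 for JUN, 4.15 for JUND and 0.918 for JUNB. In irradiated cells it was 47.4, 5.87 and 1.94 in the same order, so JUN holds a larger share by CPM. The JUN sum includes ENST00000371222 and ENST00000710273, which held identical counts in every library, whereas JUND and JUNB each had a single transcript row. On either scale the share of JUN may thus count some reads more than once. The length of JUN rests on 49.1% of its counts.

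NR4A1 (chromosome 12, 52022832 to 52059507, plus strand), an orphan nuclear receptor also known as NUR77, had the largest change of the 9 genes. It measured 3.90, 2.98 and 4.03 CPM in controls and 13.3, 7.45 and 9.33 CPM in irradiated cultures, from 16 to 34 counts and 52 to 104 counts summed over its transcripts. The lowest irradiated value was above the highest control value, and the log2FC was 1.47 with an SE of 0.302 and a 95% interval of 0.82 to 2.11 (adjusted p = 0.00465, edgeR). It was called in all 15 alternative settings run, at log2FC values from 1.21 without irradiated culture 1 to 1.93 with library totals. Transcripts ENST00000394824 and ENST00000394825 each held 3, 4 and 6 counts in controls and 19, 10 and 14 in irradiated cultures. Whether these were the same reads is not known, so the summed counts may overstate the number of NR4A1 reads and the precision of its log2FC. All RNA of a culture was pooled, so a higher level per cell and a larger share of cells with the transcript cannot be told apart here. The related receptor genes NR4A2 and NR4A3 had at most 1 and 6 counts in any library and were not tested.

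EGR1 (chromosome 5, 138465490 to 138469315, plus strand), a zinc finger factor induced through SRF and ELK, measured 9.76, 6.55 and 6.29 CPM in controls and 12.7, 9.03 and 10.4 CPM in irradiated cultures. Only the highest control exceeded the lowest irradiated value, and the log2FC of 0.54 with its SE of 0.261 did not pass (adjusted p = 0.144, edgeR). Its paralogs EGR2 and EGR3 reached at most 1 count in a library. IER3 (chromosome 6, 30743199 to 30744554, minus strand) was the most abundant of the 10 genes, at 223.9, 199.997 and 196.6 CPM in controls and 200.7, 171.3 and 184.5 CPM in irradiated cultures. Its groups overlapped and its log2FC was −0.16 with a 95% interval of −0.41 to 0.10 (adjusted p = 0.355, edgeR). Its log2FC lay 0.23 under the median of all genes with TMM and 0.22 under it with library totals, where the value itself was 0.31, and it was 0.088 with the length trend removed.

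MYC (chromosome 8, 127735434 to 127741434, plus strand) measured 56.1, 59.7 and 72.3 CPM in controls and 58.9, 45.7 and 47.4 CPM in irradiated cultures. Irradiated culture 1 lay within the control range and the other two lay under it, and the log2FC of −0.31 with an SE of 0.155 did not pass (adjusted p = 0.156, edgeR). Of its transcripts 3 fell in abundance, and in none of them did the share of MYC counts pass the edgeR usage test (adjusted p from 0.0671 to 0.255). ENST00000377970 measured 12.3, 11.8 and 12.5 CPM in controls and 6.21, 6.28 and 5.81 CPM in irradiated cultures, and fell by 1.00 on the log2 scale with an SE of 0.210 (adjusted p = 4.98e-05, edgeR). ENST00000621592 fell from 11.5 ± 1.16 to 6.40 ± 1.10 CPM (log2FC −0.84, adjusted p = 0.000982, edgeR), and the sparse ENST00000524013 from 2.18 ± 0.932 to 0.913 ± 0.352 CPM (−1.34, adjusted p = 0.00904, edgeR). With library totals alone none of these transcripts passed, ENST00000377970 having a log2FC of −0.51 (adjusted p = 0.0900, edgeR). ENST00000524013 also missed the threshold without control 3 (adjusted p = 0.189, edgeR) and without irradiated culture 1 (adjusted p = 0.113, edgeR).

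The 7 tested MYC transcripts that GENCODE release 29 does not list had log2FC values between −0.16 and −0.004, and 0 of them passed. Each held 4.36 to 5.65 CPM in controls and 4.65 to 5.66 CPM in irradiated cells. Summed over all 7 MYC rows that release 29 lists, the level was 26.8, 23.8 and 27.9 CPM in controls and 14.5, 14.2 and 12.8 CPM in irradiated cultures. The other 7 rows summed to 29.3, 35.9 and 44.4 CPM and to 44.4, 31.5 and 34.6 CPM. This split was made after the values were seen and was not tested. For single transcripts, 8.76% of the 76581 tested rose and 10.8% fell, and of the 33 transcripts of the class 9 rose and 4 fell with edgeR. DESeq2 gave an adjusted p for 26 of these transcripts and called 0 higher and 3 lower, with 7 higher at an unadjusted p under 0.05. Over all transcripts DESeq2 called 2277 higher, against 6709 with edgeR. With edgeR 1 transcript of the class rose without control 2, 2 without irradiated culture 1 and 3 without irradiated culture 3. The share of all transcripts is not given for DESeq2 or for these fits, so their counts are not read against a background.

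The 9 transcripts that rose were 5 of NR4A1, 2 of FOSL2 and 2 of JUN, and the 4 that fell were 3 of MYC and 1 of FOSL1. These are not independent rows, since transcripts of 1 gene often carried the same counts. JUN ENST00000371222 and ENST00000710273 were identical in all 6 libraries at 16.7 ± 4.05 CPM in controls and 23.2 ± 2.77 CPM in irradiated cells (log2FC 0.47, adjusted p = 0.0397, edgeR), and so were NR4A1 ENST00000394824 and ENST00000394825. FOSL2 ENST00000264716 and ENST00000379619 rose by 0.62 and 0.63 on the log2 scale (adjusted p = 0.0119 and 0.0111, edgeR) and each held close to 50% of the gene. IER3 ENST00000376377 (98.9 CPM on average) and ENST00000259874 (97.9 CPM) were split the same way and had a log2FC of −0.19 each. Over all genes, 960 of 33980 transcripts with at least 60 counts (2.83%) had exactly the counts of another transcript of their gene. Whether a read that fits several transcripts was counted for each is not stated in what was read here, so gene sums may hold some reads more than once. When each gene was represented by its most abundant transcript, NR4A1 (1.57), FOSL2 (0.78), EGR1 (0.69) and JUN (0.63) rose and MYC (−0.84) fell (adjusted p from 0.000510 to 0.00493, edgeR). In that setting 20.6% of the 10782 genes tested rose and 21% fell.

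Isoform usage, the share of a gene's counts that a transcript holds, was tested for 31 transcripts of 7 of the genes. By edgeR's diffSpliceDGE, 0 passed at an adjusted p under 0.05 with a difference in isoform fraction of at least 10 percentage points, against 0.404% of all 74843 transcripts, and limma's diffSplice also called 0, against 1.22%. By the adjusted p alone, edgeR gave 1 transcript of the class (FOSL1 ENST00000532401, below) and 4.44% of all transcripts. At an unadjusted p under 0.05 edgeR gave 6 transcripts of the class, each with a difference of less than 10 points, and 13.4% of all transcripts. FOSL1 ENST00000312562, the full-length form with 813 coding bases, held 59.7% ± 3.84 of FOSL1 counts in controls and 52.99% ± 0.613 in irradiated cells, at 92.8 ± 10.4 and 85.0 ± 4.08 CPM. FOSL1 ENST00000448083, a 2-exon form with 507 coding bases that lacks the exon 3 shown above, held 32.01%, 31.9% and 39.5% in controls and 44.3%, 42.5% and 45.4% in irradiated cultures. All irradiated shares of ENST00000448083 lay above the controls, by 9.64 points on average (adjusted p = 0.299 by edgeR, 0.00241 by limma's diffSplice). Without control 3 the difference was 12.1 points and passed both limits (adjusted p = 0.0219, edgeR).

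FOSL1 ENST00000532401, a short coding form, fell from 4.29 ± 0.233 to 1.68 ± 0.663 CPM (log2FC −1.38, SE 0.318, adjusted p = 0.000265, edgeR), and its share went from 2.78% to 1.06% (adjusted p = 0.00123, diffSpliceDGE of edgeR). FOS ENST00000535987, which also lacks exon 3 and has 1032 coding bases in place of 1140, held 25.0%, 21.4% and 35.3% of FOS counts in controls and 47.4%, 50% and 40% in irradiated cultures. The shares of ENST00000535987 did not overlap and differed by 18.5 points, and with so few FOS counts the adjusted p was 0.750 by edgeR and 0.346 by limma's diffSplice. FOSL1 ENST00000531493, a further form without exon 3, had the opposite sign, with 2.41% ± 0.540 and 1.53% ± 0.341 (adjusted p = 0.291, edgeR). MYC ENST00000377970 held 19.4% ± 2.34 of MYC counts in controls and 12.3% ± 1.61 in irradiated cells, a difference of −7.07 points with an adjusted p of 0.0671 by edgeR and 0.0279 by limma. With counts divided by length, over the transcripts in release 29 alone, the difference for ENST00000377970 was −1.16 points (adjusted p = 1.00, edgeR). NR4A1 ENST00000550557, annotated as a retained intron, held 11.6% ± 5.57 and 18.2% ± 1.06 of NR4A1 counts (adjusted p = 0.943 for usage by edgeR, 0.693 by limma) and its abundance rose by 1.90 on the log2 scale (adjusted p = 0.00247, edgeR). An exact permutation test of 3 against 3 cultures cannot give a two-sided p under 0.1, so none is given for single shares.

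**Figure D3:**
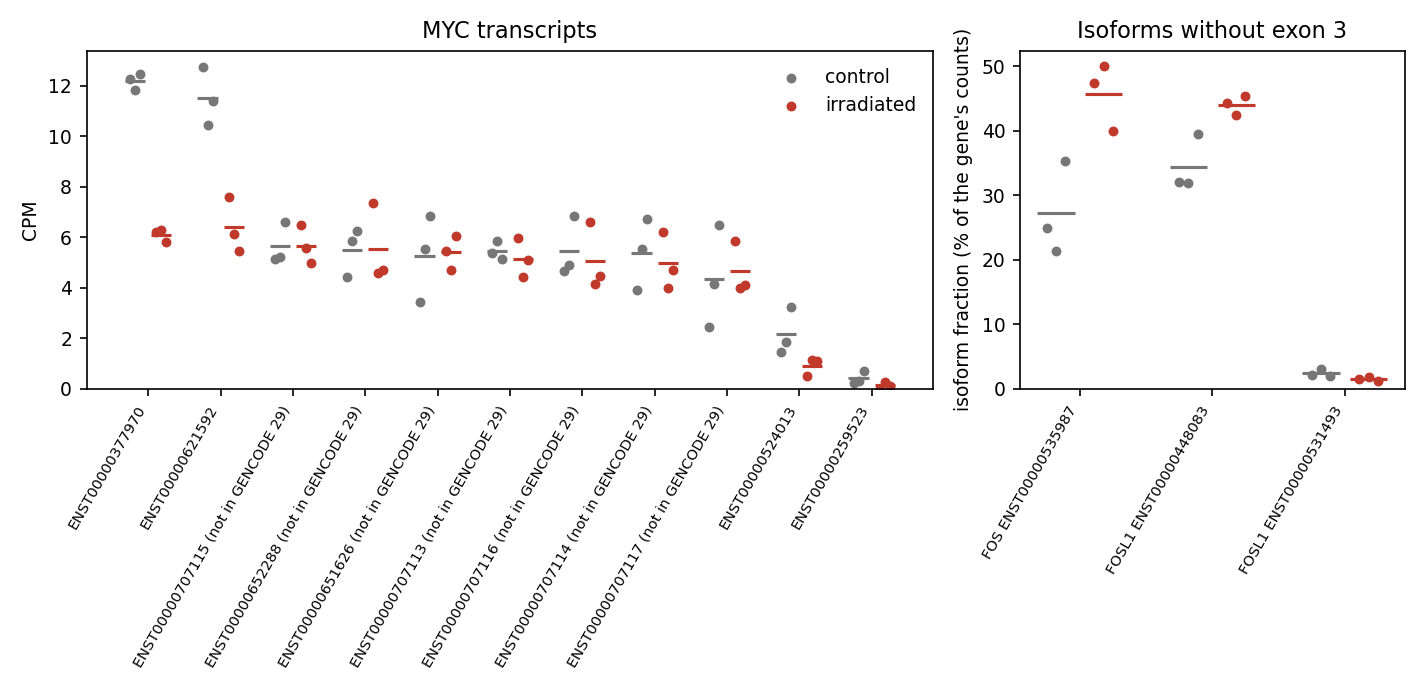
Left, CPM of the 11 tested MYC transcripts in each library. Right, share of the gene's counts (isoform fraction, %) held by the 3 FOS and FOSL1 isoforms that lack exon 3. Points are cultures and horizontal marks means. ENST00000377970 and ENST00000621592 are lower in every irradiated culture, the 7 transcripts not in GENCODE release 29 overlap between groups, and FOSL1 ENST00000448083 moves from 34.5% to 44.1%.

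Levels of the 10 genes were ordered by CPM per kb of transcript, averaged over the 6 libraries. IER3 (151.2 per kb), FOSL1 (102.1), MYC (24.4) and JUN (11.5) each exceeded the next gene in 6 of 6 libraries. FOSL2 (3.66), EGR1 (2.91), JUND (2.69), NR4A1 (2.23) and FOS (1.65) followed, and neighbors in this stretch changed places in at least 1 library. Within it NR4A1, at 1.18 per kb, was below FOS (1.70) and JUND (2.23) in controls. At 3.27 per kb it was above JUND (3.15) in irradiated cells. The place below FOS rests on the division by length. Undivided, mean CPM in controls was 3.64 for NR4A1, 3.14 for FOS and 4.15 for JUND. In irradiated cells it was 10.05, 2.93 and 5.87 in the same order. On both scales NR4A1 was below JUND in controls and above it in irradiated cells. Per kb, FOS exceeded the last gene, JUNB (0.785), in 6 of 6. The order depends on the summing of transcripts, since by the most abundant transcript alone JUN (5.63 per kb) stood above MYC (3.86) and NR4A1 (0.482) came last. The length of MYC rests on the 34.2% of its counts whose transcripts are in release 29, and that of JUN on 49.1%. For IER3 and FOSL1, the genes whose log2 CPM followed them most closely over the 6 libraries were EIF5 and THBS2 for IER3 (mean absolute difference 0.0189 and 0.0262) and PTTG1IP and LASP1 for FOSL1 (0.0317 and 0.0343), out of 6494 genes with at least 10 CPM.

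The partners, regulators and targets of these factors were read from 7 lists with 140 genes, of which 116 were tested, 19 rose and 10 fell, against the 10.5% and 13.6% of all genes given above. The number that rose was 12 without control 1, 8 when control 2 or irradiated culture 1 was left out and 6 when irradiated culture 3 was, and it was 49 with library totals, where 32% of all genes rose. Of all genes, 7.03% rose without control 1, 5.2% without control 2 and 14.4% without control 3. Without irradiated culture 1, 2 or 3 the share was 4.96%, 8.32% and 5.23%, and with the length trend removed 8.13%. The counts of single lists below are to be read beside these shares. Among 12 tested AP-1 partners 3 rose and 0 fell, with a median log2FC of 0.11. The number that rose was 1 when control 1 or irradiated culture 3 was left out, and without control 2 the median was −0.05 and 1 gene fell. The median was −0.07 with the length trend removed. The 3 genes were NFE2L1 (36.8 ± 6.81 to 67.1 ± 5.87 CPM, log2FC 0.86, adjusted p = 0.00323, edgeR), the stress factor ATF3 (4.27 ± 1.13 to 8.65 ± 2.35 CPM) and MAFF (24.5 ± 5.62 to 37.7 ± 5.11 CPM), while BATF2 had a log2FC of 0.75 (adjusted p = 0.124, edgeR). FOSB, the remaining FOS family gene, named after its values were seen, spread from 2.83 to 19.5 CPM in controls and from 2.31 to 7.98 CPM in irradiated cells (adjusted p = 0.126, edgeR). Of 18 tested other immediate-early genes 4 rose and 0 fell (median 0.36), namely the matricellular CCN1 (371.1 ± 69.9 to 544.0 ± 51.6 CPM) and CCN2 (49.9 ± 9.54 to 71.6 ± 7.74 CPM), the antiproliferative p53 target BTG2 (1.67 ± 0.708 to 4.18 ± 0.919 CPM) and IER5 (5.95 ± 2.13 to 11.1 ± 0.998 CPM). BTG2 had an adjusted p of 0.0299 by edgeR and 0.0561 by DESeq2. The count of 4 was 1 without control 1, 0 without control 2 or irradiated culture 3, 2 without irradiated culture 1 or 2, and 8 without control 3.

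Of 22 tested kinases and factors upstream 4 rose and 0 fell, with a median of 0.43, which was 0.18 without control 1. With the length trend removed 2 rose and 1 fell, and leaving out irradiated culture 1 or irradiated culture 3 gave 1 and 2 that rose. The ERK kinases' activators MAP2K1 (49.3 ± 4.59 to 77.7 ± 14.9 CPM) and MAP2K2 (37.6 ± 7.23 to 64.9 ± 6.25 CPM) rose, as did the JNK activator MAP2K4 (6.99 ± 1.98 to 12.7 ± 3.12 CPM) and the SRF coactivator MRTFA (12.1 ± 1.43 to 20.9 ± 5.02 CPM). MAP2K4 had an adjusted p of 0.0395 by edgeR and 0.0505 by DESeq2. Of 11 tested feedback genes of ERK signaling 2 rose and 0 fell (median 0.34), the phosphatases DUSP5 (4.88 ± 0.421 to 9.71 ± 0.972 CPM, adjusted p = 0.0128, edgeR) and DUSP1 (13.2 ± 3.96 to 21.98 ± 3.96 CPM, adjusted p = 0.0413, edgeR). DUSP8 (log2FC 1.07) and DUSP7 (0.71) did not pass. In this list 1 gene rose without control 1, control 2 or irradiated culture 3 and 0 without irradiated culture 1. With the length trend removed the medians of the upstream and feedback lists were 0.25 and 0.09.

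Of 14 tested AP-1 target genes 3 rose and 3 fell, with a median of 0.14. The number that rose was 1 when control 2, irradiated culture 1 or irradiated culture 3 was left out, and the number that fell was 1 and 0 in the latter pair. Cyclin D1 (CCND1) went from 43.2 ± 4.43 to 73.9 ± 6.97 CPM and rose by 0.77 on the log2 scale (adjusted p = 0.00304, edgeR), and the sphingosine kinase SPHK1 rose from 114.2 ± 16.7 to 162.6 ± 13.2 CPM. The urokinase receptor PLAUR fell from 157.2 ± 18.8 to 104.7 ± 12.3 CPM and the protease inhibitor TIMP1 from 263.4 ± 27.1 to 186.4 ± 17.7 CPM. CD44, a cell surface receptor named after its values were seen, fell by 0.42 on the log2 scale.

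In the MYC network, 3 of 15 tested genes rose and 0 fell (median 0.19), while 1 rose without control 2 (median −0.03), without irradiated culture 3 (median 0.0096) and with the length trend removed (median 0.06). ZBTB17, which encodes the MYC partner MIZ-1, rose from 2.37 ± 0.402 to 7.33 ± 1.37 CPM (log2FC 1.62, adjusted p = 0.00375, edgeR), the MAX-binding repressor MXD4 from 9.30 ± 3.80 to 17.9 ± 0.435 CPM, and FBXW7, the ubiquitin ligase subunit that marks MYC for degradation, from 3.60 ± 1.32 to 7.53 ± 3.19 CPM. The groups overlapped for FBXW7, and its adjusted p was 0.0454 by edgeR and 0.0613 by DESeq2. MYCBP2 had a log2FC of 0.86 (adjusted p = 0.0728, edgeR). Of 24 tested MYC-activated genes 0 rose and 7 fell, with a median of −0.29. They included PA2G4 (142.9 ± 19.6 to 70.0 ± 6.71 CPM, log2FC −1.03, adjusted p = 0.00123, edgeR), the nucleolar NOP16 (105.1 ± 10.5 to 53.8 ± 3.09 CPM) and GNL3 (95.2 ± 7.58 to 54.7 ± 3.50 CPM), and the nucleoside diphosphate kinase NME1 (1275 ± 181 to 715.0 ± 94.96 CPM). With library totals alone the median of the MYC-activated list was 0.17 with 4 genes higher and 4 lower, and it lay 0.36 under the median of all genes in that setting, against 0.37 with TMM. The p53 target list, an eighth list kept as a check of the treatment, in which CDKN1A, FDXR, MDM2 and TP53I3 had the smallest adjusted p, had a median of 1.33.

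**Figure D4:**
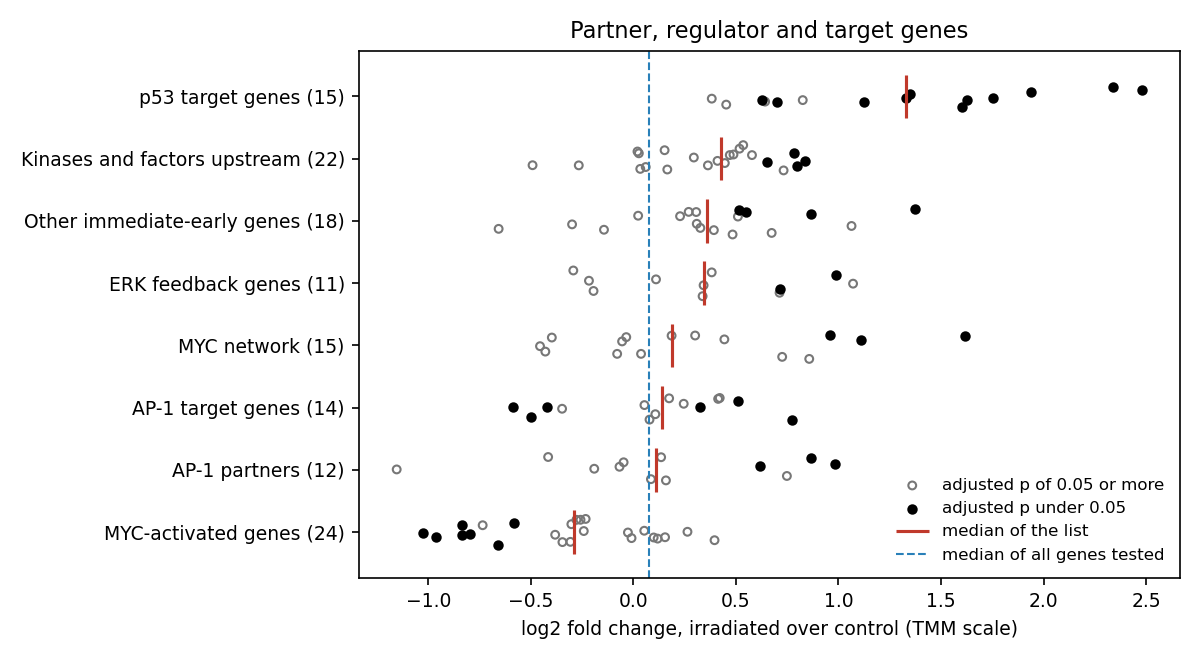
Log2 fold change (irradiated over control, TMM scale) of each tested gene in the 8 lists, with the number tested in parentheses. Filled points passed at an adjusted p under 0.05, open points did not, red marks are list medians and the dashed blue line is the median of all genes tested (0.08). The MYC-activated genes that passed all lie left of 0, at a list median of −0.29, and the AP-1 targets that passed lie on both sides.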

How the data were processed

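Long-read cDNA of 3 control and 3 irradiated HMC3 cultures was analysed. The authors deposited raw counts, 1 value for each transcript in each library, from reads aligned to GRCh38 with minimap2 and quantified with Salmon (tool versions not given in the sources used). The kit carries molecular identifiers, but no step that collapses reads by them is named, and neither the annotation release nor the strand handling of the counting is stated there. FOSL2, IER3, NR4A1 and JUNB overlap genes on the opposite strand (GENCODE release 29), so reads of these pairs may not be told apart. Columns of other samples numbered 0.

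All transcript counts were summed per gene, and genes that reached 10 counts in 3 or more libraries were tested with edgeR 4.0.16 in R 4.3.3 (TMM factors, robust glmQLFit, glmQLFTest, Benjamini-Hochberg adjustment over 12865 genes). Standard errors were obtained as |log2FC|/√F. Transcripts that reached 3 counts in any library (at least 1) were tested the same way, and their usage with diffSpliceDGE over 74843 transcripts in 11118 genes. Replicates are independent cultures, and no pair of libraries agreed within sampling noise (chi-square per degree of freedom 4.49 to 11.5). Library totals ran from 4870897 to 9082409. Lengths and coordinates came from GENCODE release 29, which gives a length for 12385 of the tested genes, and promoters from RefSeq (GRCh38.p14).

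The members and lists were chosen with earlier results of these data known. Named genes are the 10 members, the 4 tested genes with the smallest adjusted p in each list, transcripts of at least 5 CPM or among the 2 most abundant of a member, and the 2 genes most like each of the 3 most abundant members (mean absolute difference of centered log2 CPM). A few genes that fall under it are not reported here. On simulated counts for 12474 genes of this comparison, edgeR found 50 of 95 genes given a 2-fold change and 92 of 95 given a 4-fold change, and made 10 false calls. Alternatives were RLE factors, library totals, other filters, DESeq2 1.42.0, diffSplice of limma 3.58.1, length corrections, a block for the replicate number and leaving out each library. The most abundant transcript per gene was an alternative added after seeing the data. Tables and plots used Python 3.11.15, pandas 2.3.3 and matplotlib 3.10.9.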

Additional observations from a re-analysis of the deposited data

How the results depend on the processing

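NR4A1 kept its call under all 15 alternatives and FOSL2 under 10 of 15. Against 2 members that rose and 0 that fell, library totals gave 5 that rose (with JUN, EGR1 and FOSL1), where 32% of all genes rose and 3.09% fell, the limit of a log2 fold change over 1 gave 1, removal of the length trend 1, and the most abundant transcript, added after seeing the data, 4 that rose and 1 that fell, where 20.6% and 21% of all genes did. Leaving out each library gave 1 to 3 that rose and 0 that fell, with 1 without control 1, control 2, irradiated culture 2 or irradiated culture 3. In these fits 4.96% (without irradiated culture 1) to 14.4% (without control 3) of all genes rose, and 7.58% to 17% fell. Across the 8 lists, p53 targets included, 30 genes rose and 10 fell; library totals gave 62 and 4, the log2 limit 12 and 1, the most abundant transcript 17 that fell, and leaving out a library 16 to 34 that rose and 7 to 14 that fell. Of member transcripts 9 rose and 4 fell; library totals gave 16 and 1, no filter 5 that rose, the log2 limit 5 and 2, and leaving out a library 1 to 10 that rose (1 without control 2, 2 without irradiated culture 1, 3 without irradiated culture 3) and 3 to 4 that fell. DESeq2 called 0 member transcripts higher and 3 lower, with 7 higher at an unadjusted p under 0.05, and called 2277 of all transcripts higher. For these alternatives no share of all transcripts is given, so the transcript counts are not read against a background. Usage calls numbered 0 in all settings but 1, where leaving out control 3 gave 1 (range 0 to 1). Log2 fold changes that turned sign were FOS (−0.11 to 0.32), MYC (−0.31 to 0.15), IER3 (−0.16 to 0.31) and FOSL1 ENST00000312562 (−0.12 to 0.37) with library totals (relative to the median of all genes −0.19 and −0.21 for FOS, −0.39 and −0.39 for MYC and −0.23 and −0.22 for IER3), IER3 to 0.088 with the length trend removed, FOS when a library was left out (−0.34 without control 2 to 0.16 without control 3, and 0.0066 without irradiated culture 1), and FOSL1 (0.078 to −0.033) without control 2. The usage difference of MYC ENST00000621592 turned from −5.69 to 3.30 points with counts divided by length, a setting that drops transcripts without a length. Apart from these constructions the cause was not tested. The replicate numbers gave no clear pairing of the samples. Deviations from group means correlated at −0.003, 0.09998 and 0.021 for equal numbers, and not every sample correlated best with its own. Such small correlations cannot settle whether cultures of equal number were handled together. With the replicate block 3 members rose (JUN at 0.51, adjusted p = 0.0280, edgeR) and 0 fell, the lists had 32 that rose and 11 that fell, member transcripts 9 and 4, and all genes 1558 and 1840 against 1355 and 1748. FOS, with 13 to 35 counts a library, and JUNB, with 3 to 24, are limited by depth, and the controls of NR4A1 held a similarly low 16 to 34. That NR4A1 count is a sum over transcripts that may share reads, so its depth may be lower still.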
